A study of Mus musculus with 6 samples.

Results

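Transcription factor genes of macrophage identity and activation state were followed in mouse peritoneal macrophages with and without Akirin2 at 0, 2 and 4 h of lipopolysaccharide (LPS), a component of the outer membrane of gram-negative bacteria. The set holds 9 genes chosen by name, Spi1, Cebpa, Cebpb, Maf, Klf2, Klf4, Klf6, Gata6 and Nr4a1, of 18194 genes named on the array. Each gene was read from the probe set with its single symbol that had the highest mean over the 6 arrays. All 9 were above the expression floor, which asked that a gene reach the median of all probe sets on at least 1 array. Gata6 reached that median on 3 of the 6 arrays and Nr4a1 on 2, whereas the other 7 genes reached it on all 6.

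The wild-type cells came from mice labelled only as wild-type. The Akirin2 KO cells came from LysM-Cre+;Akirin2fl/fl mice, in which Cre made from the lysozyme 2 locus cuts floxed Akirin2 in myeloid cells. Both genotypes were C57BL/6 x 129Sv, and both gave macrophages elicited by thioglycollate injection. Cells were left without LPS or given 100 ng/ml for 2 or 4 h, with 1 Affymetrix array for each of the 6 conditions. The labels do not say whether the wild-type mice carried the Cre or the floxed alleles, nor the age of the mice or how many were pooled. Values are log2 units of expression, so a difference of 1 is 2-fold. A level of 1 gene cannot be set against that of another, since probes differ in brightness.

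PU.1 (the product of Spi1) and C/EBP alpha (Cebpa) are lineage-determining factors that open and hold the enhancers of myeloid cells, and C/EBP beta (Cebpb) is the family member known for acute inflammatory responses. c-MAF (Maf), KLF2 and KLF4 are known for restraining inflammatory genes or for supporting alternatively activated and resting states, while KLF6 has been described as a co-activator of inflammatory genes. GATA6 specifies resident macrophages of the peritoneal cavity, and NR4A1 (Nur77) is an orphan nuclear receptor of patrolling monocytes that is also an immediate-early gene.

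The loss of Akirin2 was visible on every KO array. Wild-type arrays at 0, 2 and 4 h read 7.43, 7.47 and 7.33 for Akirin2, and KO arrays read 5.18, 5.54 and 4.91. The macrophage genes Csf1r (12.48 to 12.69) and Lyz2 (12.01 to 12.20) were among the brighter probe sets on all arrays, whereas Itgam, another of the 8 macrophage markers, lay near the array median (3.06 to 3.47). Of 6 neutrophil markers 4 were below the array median on every array, as were 3 of 4 eosinophil, 3 of 4 endothelial and 3 of 5 dendritic cell markers. For B cells this held for 1 of 4 markers, for T and NK cells for 1 of 4 and for mast cells for 1 of 5. The B cell genes Ms4a1 (3.76 to 4.59) and Cd79a and the T cell gene Cd3e reached the median on all 6 arrays. So did the neutrophil gene Mmp8 (3.56 to 4.17), the eosinophil gene Siglecf (3.68 to 4.07) and the dendritic cell gene Zbtb46 (3.75 to 4.33). Of 9 mesothelial and fibroblast markers, some were present: Col1a1 read 7.79 to 8.71, and Wt1 (3.85 to 4.89) reached the median on all 6 arrays. Msln (2.77 to 3.26) and Upk3b (3.16 to 3.62) lay near background, and Lum was below the median of every array. In such bulk samples, fewer cells of a type and less RNA per cell cannot be told apart.

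Of the factors changed by LPS, 3 had a promoter window in the RefSeq table and are shown here because Cebpa and Klf4 fell and Cebpb rose at both times. The windows run from 250 bases before to 50 bases after the annotated start, on GRCm38.p6: Cebpa at chr7:35119043-35119342 (plus strand), Klf4 at chr4:55532426-55532725 (minus strand) and Cebpb at chr2:167688665-167688964 (plus strand). Capitals mark TATAAA (the TATA box) and TGACG (the half-site of the cAMP response element) on either strand.
Cebpa: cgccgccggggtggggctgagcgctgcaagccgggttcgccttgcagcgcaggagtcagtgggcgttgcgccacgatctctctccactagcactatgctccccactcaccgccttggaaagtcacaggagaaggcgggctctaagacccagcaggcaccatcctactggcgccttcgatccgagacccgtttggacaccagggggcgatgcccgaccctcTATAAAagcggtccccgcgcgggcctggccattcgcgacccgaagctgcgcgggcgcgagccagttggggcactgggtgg
Klf4: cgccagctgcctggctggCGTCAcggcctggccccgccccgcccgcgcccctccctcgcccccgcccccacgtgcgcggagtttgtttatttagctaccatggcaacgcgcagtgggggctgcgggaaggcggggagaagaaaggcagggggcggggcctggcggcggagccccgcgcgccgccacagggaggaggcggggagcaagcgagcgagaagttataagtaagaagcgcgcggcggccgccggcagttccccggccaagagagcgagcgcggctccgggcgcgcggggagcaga
Cebpb: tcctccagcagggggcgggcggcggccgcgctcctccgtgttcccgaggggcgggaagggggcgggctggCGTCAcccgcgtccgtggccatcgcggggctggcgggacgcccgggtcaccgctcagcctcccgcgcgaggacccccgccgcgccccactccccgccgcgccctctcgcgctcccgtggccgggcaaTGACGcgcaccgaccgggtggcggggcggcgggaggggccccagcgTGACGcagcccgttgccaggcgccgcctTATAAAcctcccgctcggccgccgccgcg

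The window of Cebpa held 1 TATA box that began 30 bases before the annotated start and no TGACG. That of Klf4 held 1 TGACG and no TATAAA. That of Cebpb held 3 matches to TGACG and 1 TATAAA that began at base 22 after the annotated start. Over 32817 windows of the same length, 20.8% held TGACG and 13.6% held TATAAA. The GC box GGGCGG, a sequence bound by factors of the SP and KLF families, was matched 5 times in the Cebpb window, 4 times in that of Klf4 and 0 times in that of Cebpa, against 35.6% of windows with a match. The C/EBP palindrome TTGCGCAA (0.183% of windows), the PU.1 core GAGGAA (28.3%) and the kappaB motif (8.46%) matched none of the 3, on either strand. Windows were also kept for Klf2, Klf6 and Nr4a1, which makes 6 of the 9 genes. The search of the 9 genes skipped windows on 1 chromosome, so a gene without a window here may still have one in RefSeq.

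After 2 h of LPS Cebpa, Maf and Klf4 were lower and Cebpb was higher in both genotypes. Cebpa fell to 28.9% of its level at 0 h, Maf to 39.3% and Klf4 to 41.7%, while Cebpb rose 1.80-fold. At 4 h Cebpa, Maf and Klf4 stood at 27.8%, 38.2% and 29.7%, Cebpb was 1.78-fold higher and Spi1 1.51-fold higher. Klf2, Klf6, Gata6 and Nr4a1 did not pass the test at either time. The LPS effect was tested by limma with time and genotype as terms, so its error starts from the departure of the genotypes from a parallel course. That error is then moderated toward a value shared by all genes, with 6.35 prior beside 2 residual degrees of freedom. Of the 9 genes 4 passed an adjusted p of 0.05 at 2 h, where 6.85% of all 13587 genes above the floor passed: 1 rose, beside 3.96% of all genes, and 3 fell, beside 2.89%. At 4 h 5 of the 9 passed, where 15.4% of all genes did: 2 rose, beside 7.76%, and 3 fell, beside 7.61%. The median difference of the 9 was -0.088 at 2 h and -0.098 at 4 h, beside -0.042 and -0.026 over all genes. Both times share the 0 h arrays. Cebpa, Maf and Klf4 passed as lower at both times, as did 2.33% of all genes, and Cebpb as higher, as did 3.34%.

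The same 3 genes were at least 2-fold lower than at 0 h in each genotype taken alone, where 1 array stands against 1 and there is no test. At 2 h this size was reached by 2.19% of all genes in wild-type and 0.905% in KO, and at 4 h by 4.75% and 2.47%. In the other direction 0 of the 9 rose 2-fold, beside 2.26% and 2.44% of all genes at 2 h and 3.72% and 4.07% at 4 h. The plots of the 6 array values and of the fitted LPS effects show these courses.

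**Figure D1:**
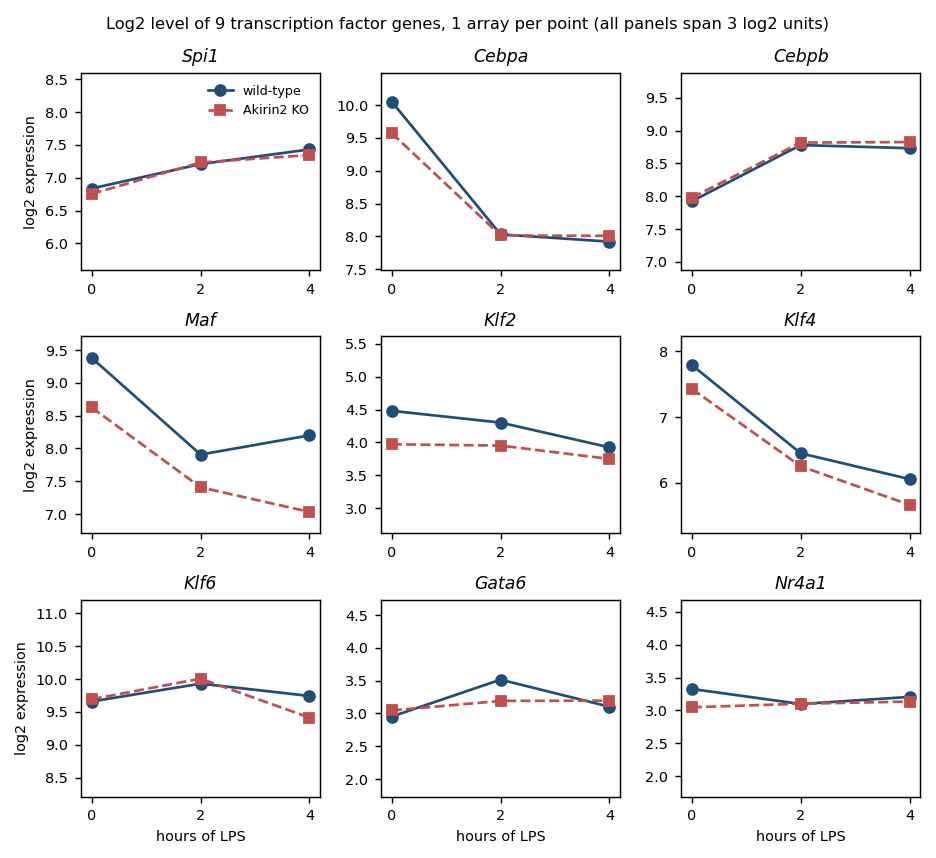
Log2 expression (vertical axis) of each factor gene against hours of LPS (horizontal axis) in wild-type (circles, solid line) and Akirin2 KO (squares, dashed line), with 1 array per point and 3 log2 units in every panel. Cebpa, Maf and Klf4 drop between 0 and 2 h in both genotypes, Cebpb rises, and the KO line of Maf lies below the wild-type line at all 3 times.

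**Figure D2:**
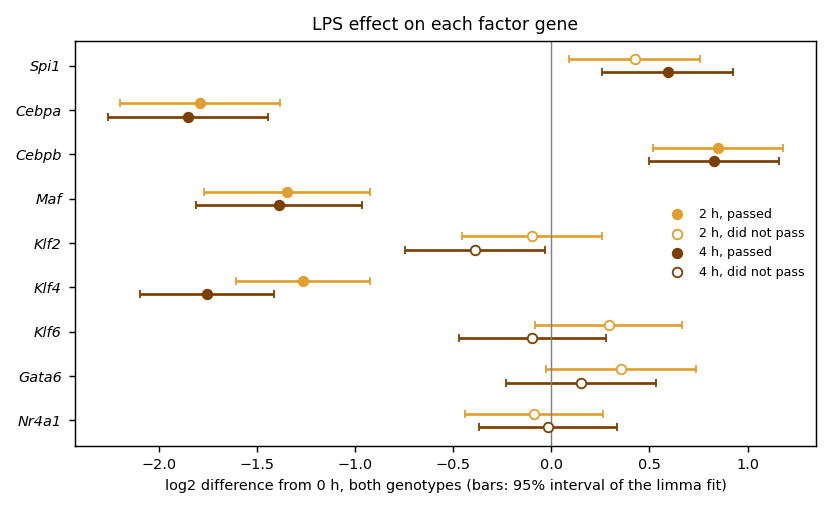
Fitted log2 difference from 0 h (horizontal axis) for each factor gene (vertical axis) at 2 h and 4 h of LPS over both genotypes, with the 95% interval of the limma fit as bars and filled points where the adjusted p was below 0.05. Cebpa, Maf and Klf4 lie below 0 and Cebpb above 0 at both times, while Spi1 is filled at 4 h alone.

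Cebpa, a lineage-determining factor, fell at both LPS times. Wild-type arrays read 10.05, 8.03 and 7.92 at 0, 2 and 4 h (probe set 1418982_at), and KO arrays read 9.57, 8.01 and 8.01. The 2 unstimulated arrays were the highest, and the 4 LPS arrays lay within 0.11 of each other, less than the moderated SD of the fit (0.18). Cebpa fell by 1.79 at 2 h (SE 0.18, limma adjusted p = 0.000672), and its difference at 4 h was -1.85 (SE 0.18, adjusted p = 0.000274). In wild-type the differences from 0 h were -2.02 and -2.13, and in KO they were -1.56 and -1.57. The KO level at 0 h was 71.7% of wild-type, and the LPS levels of the genotypes differed by no more than 0.088. The difference between the responses did not pass (0.51, 95% interval -0.026 to 1.06, adjusted p = 0.413).

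Spi1 moved the other way and less. Wild-type arrays read 6.84, 7.21 and 7.43, and KO arrays read 6.76, 7.23 and 7.35. The 0 h arrays of both genotypes were lowest and the 4 h arrays highest. The difference from 0 h was 0.43 at 2 h (SE 0.15, adjusted p = 0.139), and Spi1 rose by 0.59 at 4 h (SE 0.15, adjusted p = 0.0271). The call at 4 h was lost when any array other than wild-type at 0 h was left out, with an adjusted p between 0.0566 and 0.137 and a difference of 0.57 to 0.62.

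Cebpb, the inflammatory C/EBP, was the factor with the highest rise of the 9. Wild-type arrays read 7.92, 8.78 and 8.73, and KO arrays read 7.98, 8.82 and 8.83. All 4 LPS arrays were above both unstimulated arrays, and the 2 h and 4 h levels differed by less than the moderated SD of the fit (0.14). The rise was 0.85 at 2 h (SE 0.14, adjusted p = 0.0103) and 0.83 at 4 h (SE 0.14, adjusted p = 0.00578). The responses differed by 0.010 between genotypes (95% interval -0.53 to 0.55). Without the wild-type or the KO array at 2 h, the rise at 2 h was 0.83 or 0.87, with an adjusted p of 0.129 or 0.0900. The other Cebpb probe set, 1427844_a_at, lay near background at 3.07 to 3.29 and did not pass (0.14 at 2 h, 0.078 at 4 h).

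Of the 3 factors known for restraining inflammation, Maf and Klf4 fell and Klf2 did not pass. For Klf4 wild-type arrays read 7.79, 6.45 and 6.05, and KO arrays read 7.43, 6.25 and 5.66. Levels stepped down at each time in both genotypes, and the KO array was the lower at each time. Klf4 fell by 1.26 at 2 h (SE 0.15, adjusted p = 0.00174), and its difference at 4 h was -1.75 (SE 0.15, adjusted p = 0.000137). Its other probe set, 1417395_at, passed at both times as well in a fit of all probe sets (-1.19 and -1.23). Klf2, a close relative that is also known as a brake on endothelial and monocyte activation, read 4.48, 4.30 and 3.92 on wild-type arrays and 3.97, 3.95 and 3.75 on KO arrays. The 4 h array was the lowest of each genotype, and the wild-type array at 0 h stood highest. Its difference from 0 h was -0.099 at 2 h (adjusted p = 0.787) and -0.39 at 4 h (95% interval -0.75 to -0.034, adjusted p = 0.141).

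Maf was the 1 gene of the 9 that passed for both LPS and genotype. Wild-type arrays read 9.38, 7.91 and 8.20 (probe set 1456060_at), and KO arrays read 8.63, 7.41 and 7.03. Both unstimulated arrays were above all LPS arrays, and within each time the KO array was the lower. Maf fell by 1.35 at 2 h (SE 0.19, adjusted p = 0.00366), and its difference at 4 h was -1.39 (SE 0.19, adjusted p = 0.00145). Between 2 and 4 h the level was 0.29 higher in wild-type and 0.38 lower in KO. Of 6 Maf probe sets, 5 were above the floor, and all 5 passed at both times, with differences of -2.05 to -1.19 at 2 h and -1.98 to -1.39 at 4 h. The sixth, 1447945_at, was below the median of every array.

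Klf6, described as pro-inflammatory, peaked at 2 h without passing the test. Wild-type arrays read 9.66, 9.93 and 9.74, and KO arrays read 9.69, 10.01 and 9.41. The 2 h array was the highest of each genotype, and the KO array at 4 h was the lowest of the 6. The difference from 0 h was 0.29 at 2 h (SE 0.16, adjusted p = 0.375) and -0.098 at 4 h (adjusted p = 0.752). Among 5 Klf6 probe sets, 4 were higher at 2 h than at 0 h, and 1 of them, 1418280_at, passed in the fit of all probe sets (0.63, SE 0.16, adjusted p = 0.0478). On that probe set wild-type arrays read 6.82, 7.38 and 6.88, and KO arrays read 6.63, 7.33 and 6.61, so the 2 h arrays were the highest and the 4 h arrays lay close to those at 0 h.

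Gata6 and Nr4a1 gave no level clearly above background. For Gata6 wild-type arrays read 2.95, 3.52 and 3.10, and KO arrays read 3.05, 3.19 and 3.20, against array medians of 3.18 to 3.23. The wild-type array at 2 h stood highest, and the other 5 overlapped between genotypes. Its 2 other probe sets read between 2.76 and 3.35. Nr4a1, which has 1 probe set, read 3.33, 3.10 and 3.21 on wild-type arrays and 3.05, 3.10 and 3.13 on KO arrays. Neither gene passed in any comparison, and levels this low say nothing of a change below the range of the array. Nr4a1 is induced within the first hour of stimulation in many cells, and the series has no array between 0 and 2 h.

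**Figure D3:**
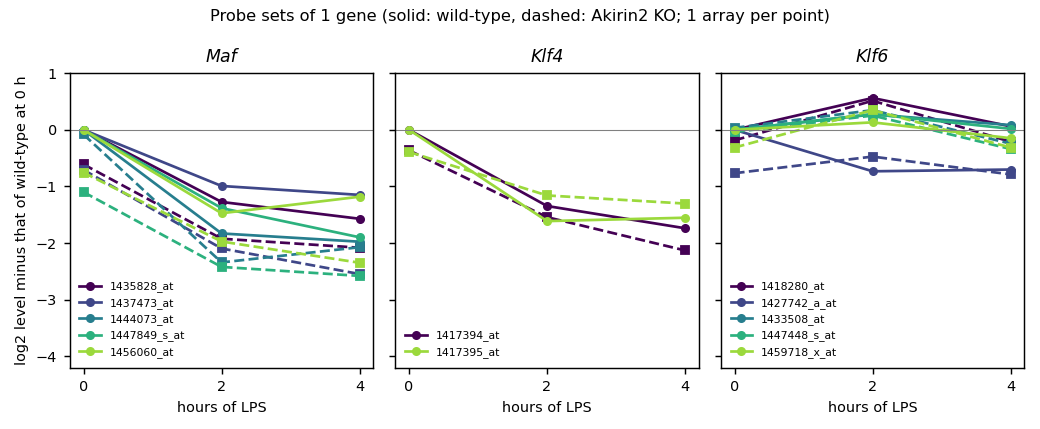
Log2 level of every probe set above the floor of Maf, Klf4 and Klf6 minus its own wild-type level at 0 h (vertical axis) against hours of LPS (horizontal axis), 1 array per point, solid for wild-type and dashed for Akirin2 KO. All 5 Maf probe sets fall in both genotypes and lie lower in KO at each time, whereas 4 of 5 Klf6 probe sets are highest at 2 h in both genotypes.

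Between genotypes 1 of the 9 factors passed: Maf was lower in Akirin2 KO. Its KO level was 59.2% of wild-type before LPS, 70.8% after 2 h and 44.5% after 4 h. The fitted difference of Maf was -0.81 (SE 0.15, 95% interval -1.15 to -0.46, limma adjusted p = 0.0375). Among all genes 1.95% passed this comparison, 1.06% as lower and 0.891% as higher. Its p sets the difference against the moderated error, which draws on the steadiness over the times and on all genes, not on the spread between mice. At 4 h Maf was at least 2-fold lower in KO, as were 0.618% of all genes, while 0.832% were that much higher. At 0 h and 2 h 0 of the 9 genes differed 2-fold either way, beside 1.15% lower and 0.780% higher among all genes at 0 h and 0.464% and 0.486% at 2 h.

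All 5 Maf probe sets above the floor were lower in KO over the 3 times, by 0.23 to 1.07. In the fit of all probe sets 3 of them passed: 1437473_at (-1.07, adjusted p = 0.0127), 1447849_s_at (-0.94, adjusted p = 0.0137) and 1456060_at (-0.81, adjusted p = 0.0384). The probe set 1435828_at differed by -0.59 (adjusted p = 0.0583) and 1444073_at by -0.23 (adjusted p = 0.520). Without the wild-type or the KO array at 4 h the difference of 1456060_at was -0.63 (adjusted p = 0.0825), and with arrays centred it was -0.79 (adjusted p = 0.102). Other measures moved with genotype too. The summed linear level of 9 mesothelial and fibroblast markers was 726 to 789 in wild-type and 451 to 534 in KO, with Msln at 2.77 to 3.26 and Upk3b at 3.16 to 3.62, near background, and Lum below the median of every array. The log2 difference between 3′ and 5′ Actb probe sets, a sign of RNA quality, was 4.09 to 4.22 in wild-type and 4.36 to 4.64 in KO, while that of Gapdh overlapped between genotypes (4.33 to 4.42 and 4.34 to 4.52). Their part in the Maf difference was not tested. For Actb and Gapdh alike, the 3′ probe sets read at least 4.09 log2 units above the 5′ ones on every array of both genotypes. What this gap did to probe set levels, or to differences between probe sets of the same gene, was not tested.

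Klf2 and Klf4 were lower in KO at all 3 times by smaller amounts that did not pass. Klf2 differed by -0.51, -0.35 and -0.18 at 0, 2 and 4 h, a mean of -0.35 (95% interval -0.64 to -0.055, adjusted p = 0.240), and Klf4 by -0.32 in the fit (95% interval -0.60 to -0.040, adjusted p = 0.261). The probe set 1417395_at of Klf4 did not share this direction (0.10, adjusted p = 0.842). Being lower in KO at every time was common: it held for 3 of the 9 genes and for 20.4% of all genes. Cebpb was higher at all 3 times, as were 17.2% of all genes. The other 6 factors had fitted genotype differences between -0.14 for Cebpa and 0.062 for Cebpb. Their 95% intervals reached no further than -0.47 and 0.33. The median of the 9 was -0.12, beside -0.011 over all genes.

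**Figure D4:**
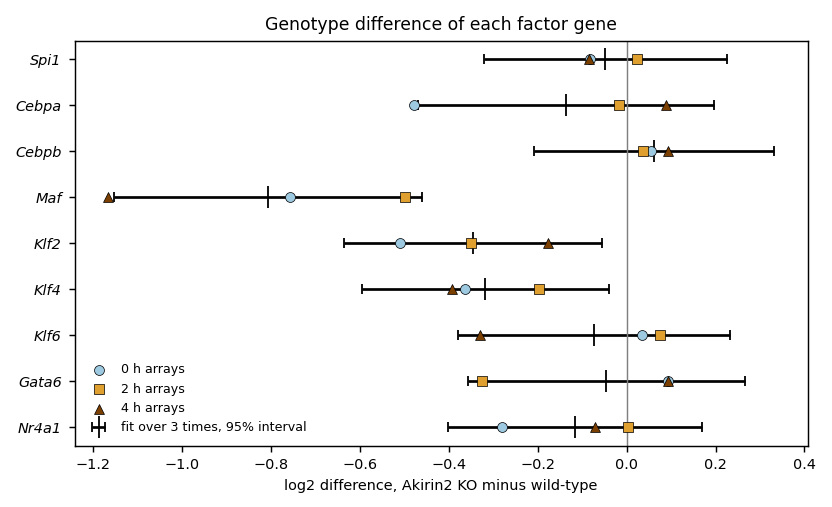
Log2 difference Akirin2 KO minus wild-type (horizontal axis) of each factor gene (vertical axis) at 0, 2 and 4 h (symbols, 1 array pair each) and as fitted over the 3 times (tick, with its 95% interval as a bar). The 3 symbols of Maf, Klf2 and Klf4 all lie left of 0, and Maf reaches -1.17 at 4 h.

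The interaction of genotype with stimulation passed an adjusted p of 0.05 in limma for 0 of the 9 factors, beside 0.0294% of all genes. A count of 0 is near that share and does not show that the genotypes responded equally. At an unadjusted p under 0.05 there were 0 of the 9 as well. Fitted response differences ran from -0.21 for Gata6 to 0.51 for Cebpa. Their SEs were 0.25 to 0.30, and the 95% interval of Cebpa reached 1.06. The interaction is read against a shift of all genes, whose median was 0.10 as reported, 0.048 with quantile normalization again and -0.11 with arrays centred. For Maf the response difference was 0.26 at 2 h and -0.41 at 4 h, opposite in sign, which the fit averages to -0.077 (95% interval -0.72 to 0.57).

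By profile over the 6 arrays, the 3 genes most like each factor that spanned at least 1 log2 unit were taken by the root mean square difference of their centred values. Nearest to Cebpa were Ssh2 (0.16), Tnfaip8l2 (0.17) and Cbfa2t3 (0.17). Nearest to Klf4 were Il6ra (0.17), the gene of the interleukin 6 receptor alpha chain, Tcp11l2 (0.18) and Natd1 (0.18). Apobec1, which encodes an RNA-editing cytidine deaminase, was closest to Maf (0.14): it read 10.41, 9.08 and 8.94 on wild-type arrays and 9.47, 8.37 and 8.11 on KO arrays. The next for Maf, Gas1 and Phf14, were about as far from it (0.29 each) as Klf4 was (0.33). Among Cebpa, Maf and Klf4 themselves the closest pair was Cebpa and Klf4 (0.28), and the farthest was Cebpa and Maf (0.45). All these profiles share the same 6 arrays.

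Paralogs of the 9 factors and other macrophage factors changed in both directions. Of 52 listed, 44 were above the floor. At 2 h 8 of the 44 rose and 5 fell, where 3.96% and 2.89% of all genes did, and at 4 h 10 rose and 7 fell, where 7.76% and 7.61% did. Their median LPS difference was -0.00090 at 2 h and -0.046 at 4 h, beside -0.042 and -0.026 over all genes.

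Among 9 KLF paralogs Klf7 (1.27) and Klf3 (0.84) rose at 2 h, and Klf9 (-1.20) and Klf13 (-0.72) fell. Klf7 (1.35), Klf3 (0.68) and Klf9 (-0.93) passed again at 4 h. Of 3 C/EBP paralogs Cebpd, another acute-phase member, rose at 4 h (1.20), and Cebpg, which lacks an activation domain, fell (-0.95). The small MAF genes Maff (2.30 at 2 h, 1.73 at 4 h) and Mafg (0.69 at 4 h) rose, opposite to the large MAF gene Maf. Maff read 3.27, 5.83 and 5.22 on wild-type arrays and 3.11, 5.15 and 4.62 on KO arrays, so its 2 h arrays were the highest of each genotype.

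Nr4a3, a paralog of Nr4a1, was above background and induced. It read 3.99, 5.73 and 5.62 on wild-type arrays and 4.15, 5.35 and 5.19 on KO arrays, a rise of 1.47 at 2 h (SE 0.18, adjusted p = 0.00218) and 1.33 at 4 h. Nr4a2 fell by 0.57 at 4 h with an adjusted p of 0.0493, a call that was lost in 11 of 13 other settings. Among 3 GATA paralogs 0 passed either LPS comparison in limma, with 1 at each time at an unadjusted p under 0.05. Of 8 ETS genes beside Spi1, Ets2 rose by 2.55 and 2.65 at the LPS times, Gabpa rose by 0.84 and 0.63, and Fli1 fell by 0.97 at 4 h.

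Among 16 other macrophage factors, Irf8, a partner of PU.1 in monocyte development, fell at 2 h (-2.15) and 4 h (-1.54). The lipid-sensing nuclear receptor gene Pparg fell at both times (-0.98 and -2.02), as did Rxra (-0.74 and -0.99), which encodes its dimer partner. Tfec, a macrophage-restricted relative of Mitf, rose by 1.86 and 1.92. Zeb2 rose by 0.81 at 2 h, and Nr1h3, which encodes the oxysterol receptor LXR alpha, rose by 0.65 at 4 h. Between genotypes 1 of the 44 passed, where 1.95% of all genes did: Nr1h3, which was higher in KO by 0.74 (SE 0.14, adjusted p = 0.0400), a call that was lost in 5 of 13 other settings.

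**Figure D5:**
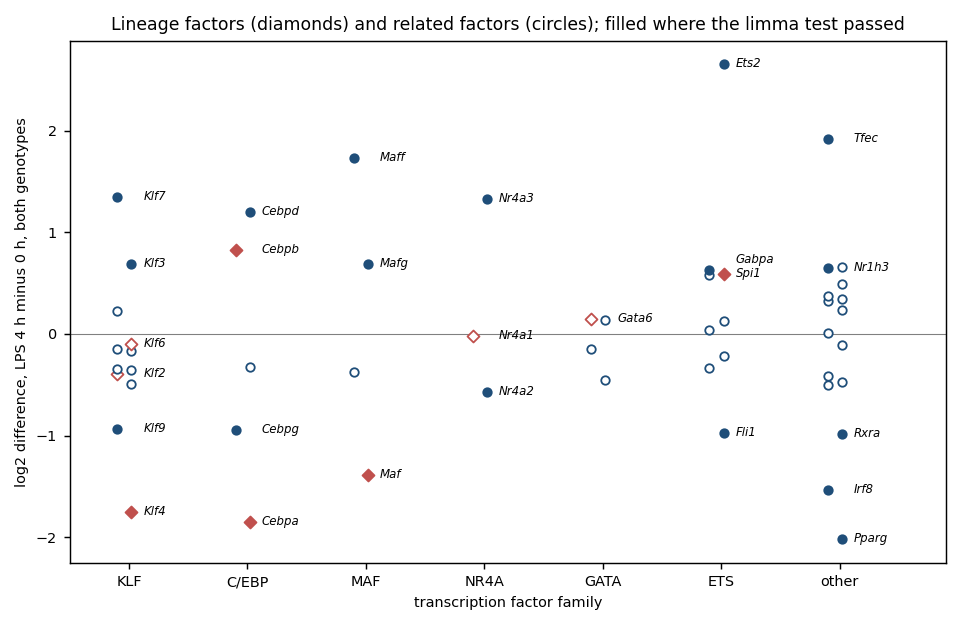
Log2 difference between 4 h of LPS and 0 h over both genotypes (vertical axis) by transcription factor family (horizontal axis), with the 9 lineage factors as red diamonds, related factors as blue circles, and filled symbols where the limma adjusted p was below 0.05. Filled symbols lie on both sides of 0 in the KLF, C/EBP, MAF, NR4A and ETS families: Maff is at 1.73 and Maf at -1.39, and Klf7 is at 1.35 and Klf4 at -1.75.

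Genes known as targets of these factors were measured as well. Beside them, 3.96% of all genes rose and 2.89% fell at 2 h, and 7.76% rose and 7.61% fell at 4 h. Of 8 myeloid genes that PU.1 acts on, Cybb, a subunit gene of the phagocyte oxidase, rose (0.81 at 2 h, 1.34 at 4 h) and Fcgr1, a high-affinity IgG receptor gene, fell (-0.66 and -0.88). The list's median was -0.017 and -0.095. Csf1r, a textbook PU.1 target, read 12.48 to 12.69 on all 6 arrays. Of 6 listed genes linked to KLF2 and KLF4, Thbd, which encodes thrombomodulin, fell at 2 h (-2.18) and 4 h (-2.29), as did Arg1 (-0.79 and -1.93), an enzyme gene of alternative activation. Mrc1 and Retnla, also markers of alternative activation, fell at 4 h (-1.46 and -0.58), while the cell cycle inhibitor gene Cdkn1a rose by 0.96 and 1.12. Of the calls on listed genes, that of Cdkn1a at 2 h was lost in 5 of 13 other settings, and those of Fcgr1, Klf13 and Rxra at 2 h and of Gabpa and Retnla at 4 h were lost in 4 each. That list's median was -0.28 at 2 h and -1.02 at 4 h, beside -0.042 and -0.026 over all genes.

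Of 8 genes of resident peritoneal macrophages linked to GATA6, Icam2 (-1.19) and Selp (-0.92) fell and Cxcl13 (1.06) rose at 4 h, where 7.61% of all genes fell and 7.76% rose. At 2 h 0 passed in limma, with 2 at an unadjusted p under 0.05. Between genotypes, where 1.95% of all genes passed, Fcgr1 was lower in KO (-0.89, limma adjusted p = 0.0115), as was Cxcl13 (-1.27, adjusted p = 0.00783). Of the 6 genes linked to KLF2 and KLF4, 0 passed in limma, with 4 at an unadjusted p under 0.05. The mesothelial and fibroblast sums (726 to 789 in wild-type, 451 to 534 in KO) and the Actb values (4.09 to 4.22 and 4.36 to 4.64) moved with these genotype differences too, the Gapdh values (4.33 to 4.42 and 4.34 to 4.52) overlapped, and their part was not tested.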

How the data were processed

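The deposited values are log2 expression per probe set, which the authors obtained by RMA, per the submitters' processing notes. The RMA version is not given here by any source. RMA quantile-normalizes arrays, so a shift common to most genes is removed. Values ran from 2.26 to 14.2 over 45101 probe sets, with array medians of 3.18 to 3.23. The number of arrays, 1 per condition, limits the precision.

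Of the probe sets, 34958 had 1 symbol in the platform annotation, 932 had several and 9211 were unnamed here. The probe set with the highest mean stood for each gene, and 13587 of 18194 genes passed the floor. Tests used limma 3.58.1 in R 4.3.3 (lmFit, eBayes, Benjamini-Hochberg adjustment over all 13587 genes). The additive fit had time and genotype as terms and 2 residual degrees of freedom, to which eBayes added 6.35 prior ones from all genes. The interaction of genotype with stimulation was fitted with 1, to which it added 11.5. Nothing in the labels ties samples to separate mice, so p-values do not measure the spread between mice. With 1 array per condition, they rest on departures from the fitted terms and on an error shared with all genes. The fits were also run on simulated data with known changes and independent errors, which checks the code and cannot make up for 1 array per condition.

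Named genes are the 9 factors, Akirin2, up to 4 genes a list and comparison that passed, the 3 nearest profiles, and cell type markers. Members and lists were chosen with earlier results of these data known. Promoters came from RefSeq (GRCm38.p6).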

Additional observations from a re-analysis of the deposited data

Results flagged for a closer look

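Some LPS responses had opposite signs in wild-type and KO. With 1 array per condition these differences between genotypes rest on single arrays. Klf6 at 4 h was 0.084 above its 0 h level in wild-type and differed by -0.28 in KO. Nr4a1 differed from 0 h by -0.23 at 2 h and -0.12 at 4 h in wild-type and by 0.054 and 0.088 in KO, all at levels near background. The interaction over both LPS times did not pass for Klf6 (-0.16, limma adjusted p = 0.851) or Nr4a1 (0.25, adjusted p = 0.729). Opposite signs were common over all genes, at 35.6% at 2 h and 34.9% at 4 h. Over the 66 listed genes above the floor they held for 16 at 2 h and 12 at 4 h, smaller shares than over all genes. Among listed genes that passed a test, Retnla at 2 h differed from 0 h by -0.060 in wild-type and 0.16 in KO (interaction 0.31, adjusted p = 0.656). Of the listed genes that passed none, Irf4 and Tlr4 had opposite responses of at least 0.3 in both genotypes, a size chosen after the values were seen. Irf4, which encodes a factor of alternatively activated macrophages, read 5.19, 4.75 and 3.80 on wild-type arrays and 4.70, 5.74 and 5.27 on KO arrays. It differed from 0 h by -0.44 and -1.39 in wild-type and by 1.04 and 0.57 in KO, and its interaction was 1.72 (SE 0.27, adjusted p = 0.0516). Tlr4, which encodes the LPS receptor, differed at 2 h by -0.46 in wild-type and 0.37 in KO, with an interaction of 0.74 (SE 0.25, adjusted p = 0.241).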

How the results depend on the processing

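Cebpa, Maf and Klf4 passed at both LPS times in all 14 settings tried, the reported one included, with differences at 2 h of -2.05 to -1.53, -1.58 to -1.11 and -1.35 to -1.17. Over all genes, LPS calls ranged from 415 to 1669 at 2 h and from 1368 to 2878 at 4 h, genotype calls from 142 to 883 and interaction calls from 0 to 256. With the floor at the 75th percentile the fit held 7 of the 9 factors, without Gata6 and Nr4a1. In limma, 0 of these 7 passed the genotype comparison (Maf at an adjusted p of 0.0534). With quantile normalization again (Maf at 0.0570) or with arrays centred (0.102), 0 of the 9 factors passed it (unadjusted p under 0.05 for 3 as reported). Leaving out 1 array at a time gave 0 to 1. Past 1.5-fold in either direction there were 5 factors at 4 h of LPS in wild-type, beside 21.5% of all genes, 5 in KO, beside 17.8%, and 1 between genotypes at 0 h, beside 10.2%. With probe sets averaged, 0 differed 2-fold between genotypes at 4 h, and Cebpb at 2 h had an adjusted p of 0.0533.

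The signs that turned belonged to values that had not passed as reported, and the cause was not tested. For LPS at 2 h these were Klf2 (0.024) and Nr4a1 (0.035) without wild-type at 0 h, Nr4a1 (0.0018) without wild-type at 2 h, with lowest values of -0.22 and -0.21 when 1 array was left out, and Klf6 by probe set 1427742_a_at (-0.22). At 4 h they were Nr4a1 with quantile normalization again (0.0045), arrays centred (0.017) or without wild-type at 0 h (0.11) or 4 h (0.017), with a lowest value of -0.14 when 1 array was left out, Klf6 without KO at 4 h (0.095, lowest -0.29) or by 1418280_at (0.018), and Gata6 by 1425463_at (-0.12). Between genotypes they were Cebpa without an array of 0 h (0.036, lowest -0.25), Gata6 without 1 of 2 h (0.093, lowest -0.12), Klf6 without 1 of 4 h (0.055, lowest -0.15), Cebpb by 1427844_a_at (-0.050) and Klf4 by 1417395_at (0.10). The interaction turned for Cebpb (-0.0063) and Klf6 (0.18) with probe sets averaged, for Spi1 (-0.055) and Cebpb (-0.039) with quantile normalization again, and for Spi1 (-0.16), Cebpb (-0.20) and Klf4 (-0.15) with arrays centred. By other probe sets it turned for Cebpb (-0.023), Maf (0.030 and 0.24) and Klf6 (0.025, 0.85 and 0.34). The fit of all probe sets was chosen after the data were seen. Listed genes that passed kept their direction in all 624 repeats and lost the call in 73. The additive fit already compares the genotypes within each time, and the labels carry no replicate numbers for a further block.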
